A study of Mus musculus with 28 samples.

Results

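Mural cells, the pericytes and smooth muscle cells that wrap blood vessels, were followed in mouse tail tendon through 10 genes chosen by name: the contractile genes Acta2, Tagln, Myh11 and Cnn1 and the pericyte genes Rgs5, Pdgfrb, Mcam, Notch3, Cspg4 and Kcnj8. They are 10 of the 25719 gene identifiers in the count tables, and all 10 had enough reads to be tested in each comparison. RNA was sequenced from tail tendon fascicles of 28 C57BL/6 mice, with 1 library per mouse: 7 WT and 8 Fosl-2(Tg) mice at the early stage (6 to 8 weeks of age) and 6 WT and 7 Fosl-2(Tg) mice at the established stage (over 14 weeks). Fosl-2(Tg) mice carry extra murine Fosl2, an AP-1 transcription factor subunit, inserted at random together with an eGFP marker and driven by the widely active MHC class I promoter H2Kb, and the WT mice were non-transgenic animals of the same breeding. The transgene is therefore not limited to fibroblasts or to vessels, and the fascicles were ground whole, so every cell type in them gave RNA. All 15 early mice were male and 11 of the 13 established mice were female, so stage and sex cannot be told apart.

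Smooth muscle cells contract through a dedicated set of actin, myosin and actin-binding proteins, while pericytes sit on capillaries and are recruited by endothelial PDGF-B acting on the receptor PDGFRB and held by Notch signals through NOTCH3. Tendon fascicles hold few vessels, and most of their cells are tendon fibroblasts that lay down type I collagen. Smooth muscle actin, the product of Acta2, is also the usual mark of a myofibroblast, the contractile fibroblast of fibrotic tissue, so the gene alone does not name a cell. The question asked of these 10 genes was how they differed between genotypes at each stage, and whether Acta2 went with the vessels or with the fibroblasts from mouse to mouse.

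The libraries held 9645598 to 66894396 counted reads. Values are CPM, reads of a gene scaled to the library's total, after TMM scaling, which corrects for differences in library composition. Fosl2 itself ranged from 58.8 to 136 CPM in early WT and 63.4 to 156 CPM in early Fosl-2(Tg) mice, and from 78.1 to 169 CPM in established WT and 121 to 160 CPM in established Fosl-2(Tg) mice. These ranges overlapped at both stages, and its difference did not pass the test at either (log2 fold change 0.20, FDR = 0.918, and 0.38, FDR = 0.141), so the count of Fosl2 does not separate the genotypes. Col1a1 gave 101056 to 350403 CPM in early WT, 137221 to 389120 CPM in early Fosl-2(Tg) and 44271 to 100124 CPM in established WT mice but 989 to 28261 CPM in established Fosl-2(Tg) mice, with replicates 5 and 1 of that group lowest. Skeletal muscle RNA varied widely, Acta1 of skeletal muscle reaching from 8.11 to 3199 CPM over the 28 libraries.

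Genotypes were compared within each stage by edgeR's quasi-likelihood test, a gene being called at an FDR of at most 0.05 (Benjamini-Hochberg over all genes tested). Of the 10 genes, 0 were called at the early stage, where 0.0396% of 15138 genes were called, and none of the 10 had an unadjusted p under 0.05, which 6.06% of all genes had. DESeq2, limma voom and a fit that paired mice by replicate number also called 0 of the 10 there (over all genes the calls numbered 6, and 11 with the pairing). Their early log2 fold changes lay between −0.30 (Cspg4) and 0.58 (Mcam). At the established stage 1 of the 10 was called, Acta2, where 6.51% of 15862 genes were called, so the share of the 10 genes called is near that of all genes. The median log2 fold change of the 4 contractile genes was 0.02 and that of the 6 pericyte genes was −0.71, beside 0.01 over all genes.

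Acta2 (ENSMUSG00000035783, chr19:34217737-34232990 on the minus strand of GRCm39) encodes the actin of smooth muscle. It measured 29.0, 44.0 and 59.7 CPM (lowest, median, highest) in early WT and 33.4, 44.5 and 69.3 CPM in early Fosl-2(Tg) mice. The 2 early groups covered the same range (log2 fold change 0.06, SE 0.16, FDR = 0.969). Established WT mice gave 22.2, 31.5 and 43.8 CPM and established Fosl-2(Tg) mice 11.9, 20.9 and 25.9 CPM. The 7 established Fosl-2(Tg) mice were all below the mean of the WT mice, and 5 of them lay below every WT mouse, with WT replicate 4 at 22.2 CPM inside the Fosl-2(Tg) range. Acta2 was thus lower in established Fosl-2(Tg) tendon, at 19.6 ± 5.43 CPM (SD, n = 7) against 32.4 ± 7.07 CPM (SD, n = 6), a log2 fold change of −0.72 (SE 0.19, FDR = 0.0444). Its FDR was close to the threshold: 7 of 11 other settings kept the call, which was lost with no filter on low counts (FDR = 0.0503), with a block for the replicate number (FDR = 0.0810), without the 2 established males (FDR = 0.0898) and with the endothelial score as a covariate (FDR = 0.0592), the log2 fold change staying between −0.77 and −0.69. Leaving out 1 library at a time kept the call in 4 of 13 fits. It was lost without Fosl-2(Tg) replicate 1, 2, 3 or 5 and without WT replicate 1, 2, 3, 5 or 6 (highest FDR 0.0932, without WT replicate 1). Because the tissue is bulk, fewer cells that express a gene and less of its RNA per cell cannot be told apart.

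From the early to the established stage, the mean level of Acta2 changed by a ratio of 0.695 in WT mice, whose ranges overlapped, and of 0.404 in Fosl-2(Tg) mice, where every established mouse lay below every early mouse. Between these 2 Fosl-2(Tg) groups 8.03% of 16082 genes were lower without overlap, and the sexes of the groups differ. The genotype difference of Acta2 differed between the stages by −0.78 on the log2 scale (SE 0.26), which did not pass the interaction test (FDR = 0.0641, 7.43% of 16082 genes called). DESeq2 (adjusted p = 0.0401) and limma voom with quality weights (adjusted p = 0.0449) did call it.

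The promoter of Acta2 is shown because serum response factor, which drives contractile genes, binds the CArG box, a pair of cytosines and a pair of guanines around a core of A and T. The window runs from 250 bases before to 50 bases after the RefSeq start, chr19:34255324-34255623 on the minus strand of GRCm38.p6 (an older build than that of the counts), and capitals mark CArG matches with 1 core base other than A or T:
Acta2 promoter: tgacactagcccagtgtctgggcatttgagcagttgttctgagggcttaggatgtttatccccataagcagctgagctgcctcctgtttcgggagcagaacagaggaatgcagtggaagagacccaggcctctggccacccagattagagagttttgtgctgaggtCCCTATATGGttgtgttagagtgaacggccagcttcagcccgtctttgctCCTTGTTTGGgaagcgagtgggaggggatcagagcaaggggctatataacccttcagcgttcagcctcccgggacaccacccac
The 2 matches begin 84 and 34 bases before the start, and they do not overlap. RefSeq windows were given for 7 of the 10 genes (not for Tagln, Myh11 or Pdgfrb), and Acta2 was the 1 gene of these 7 with such a match, which 9.98% of all 32851 windows hold. A CArG box with a full A and T core was in 0 of the 7 windows and in 1.63% of all windows. The AP-1 motif TGACTCA, searched on both strands, was in 0 of the 7 and in 5.20% of all. A match is a run of letters and was not tested for binding.

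The other 3 contractile genes were not called. Tagln (chr9:45840909-45847404, minus strand), which encodes the actin-binding protein transgelin, measured 5.59, 7.85 and 18.6 CPM in established WT and 4.99, 9.34 and 16.8 CPM in established Fosl-2(Tg) mice. Myh11 (chr16:14012399-14109236, minus strand), the smooth muscle myosin heavy chain and the most specific of the 4 for smooth muscle, measured 1.41, 2.66 and 6.15 CPM in established WT and 1.02, 2.11 and 10.7 CPM in Fosl-2(Tg) mice. For both, the genotypes overlapped almost fully, with log2 fold changes of 0.04 (SE 0.32, FDR = 0.948) for Tagln and −0.00 (SE 0.53, FDR = 0.999) for Myh11. The high Tagln value was 1 mouse, WT replicate 2, and the high Myh11 value was Fosl-2(Tg) replicate 5. At the early stage Tagln ranged from 5.46 to 10.8 CPM in WT and from 4.29 to 12.2 CPM in Fosl-2(Tg) mice, and Myh11 from 1.04 to 5.67 CPM and from 1.11 to 3.78 CPM, again overlapping.

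Cnn1 (chr9:22010512-22020926, plus strand), which encodes the contraction regulator calponin 1, had the opposite sign to Acta2. It measured 0.375, 0.792 and 0.921 CPM in established WT and 0.677, 1.12 and 1.66 CPM in established Fosl-2(Tg) mice, 5 of 7 Fosl-2(Tg) mice lying above every WT mouse. The log2 fold change was 0.60 (SE 0.24) and did not pass the test (FDR = 0.127). Early mice gave 0.416 to 0.801 CPM in WT and 0.185 to 1.00 CPM in Fosl-2(Tg). These are few reads, 513 over all 28 libraries with 9 libraries under 10. Moreover, 35.1% of the exonic length of Cnn1 overlaps Elof1 on the opposite strand, which had 11094 reads, and whether the counting used strand is not given in the sources used here. The overlap was 9.33% for Acta2 with Stambpl1 and 6.02% for Tagln with Pcsk7. Stambpl1, with a log2 fold change of 0.27 at the established stage, Elof1 with −0.12 and Pcsk7 with 0.07 were not called.

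**Figure D1:**
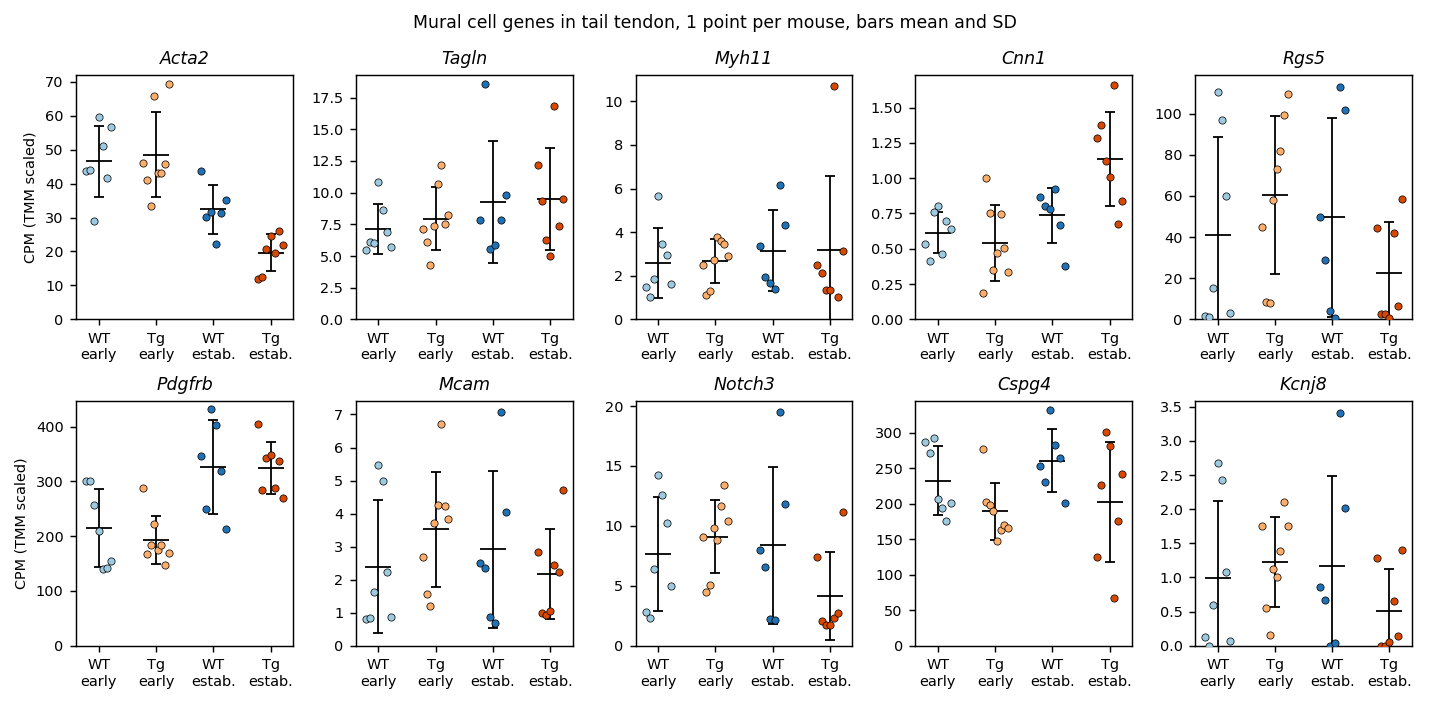
Level of each of the 10 mural cell genes in CPM (TMM scaled, y axis starting at 0), with 1 point per mouse and bars for the mean and SD of the 4 groups (early: 7 WT, 8 Fosl-2(Tg). Established: 6 WT, 7 Fosl-2(Tg)). Acta2 lies between 11.9 and 25.9 CPM in established Fosl-2(Tg) mice, below all early Fosl-2(Tg) mice, while Rgs5 runs from 0.453 to 113 CPM and spreads over most of its range in every group.

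The pericyte genes fell into 2 kinds by their spread. Rgs5 (chr1:169483036-169524887, plus strand), a regulator of G-protein signalling that marks pericytes, differed 249-fold between the lowest and the highest of the 28 mice. It measured 1.25, 15.4 and 110.3 CPM in early WT, 7.90, 65.8 and 109.6 CPM in early Fosl-2(Tg), 0.558, 39.3 and 113 CPM in established WT and 0.453, 6.29 and 58.4 CPM in established Fosl-2(Tg) mice. Mice of the same group thus differed far more than the genotypes did, and the log2 fold changes of 0.55 (SE 0.82, FDR = 0.927) at the early and −1.14 (SE 1.08, FDR = 0.517) at the established stage were within that spread.

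Notch3 (chr17:32339794-32385893, minus strand), the mural cell receptor for endothelial Jagged ligands, measured 2.18, 7.26 and 19.5 CPM in established WT and 1.71, 2.31 and 11.2 CPM in established Fosl-2(Tg) mice. Of the Fosl-2(Tg) mice 3 lay below every WT mouse and 6 of 7 below the WT mean, yet the difference did not pass the test (log2 fold change −1.002, SE 0.59, FDR = 0.290). Mcam (chr9:44045504-44054025, plus strand), the adhesion molecule CD146, measured 0.697, 2.42 and 7.08 CPM in established WT and 0.926, 2.23 and 4.72 CPM in Fosl-2(Tg) mice, which overlapped (log2 fold change −0.42, SE 0.54, FDR = 0.639). Kcnj8 (chr6:142510563-142517830, minus strand), a subunit of the ATP-sensitive potassium channel of pericytes, reached at most 3.41 CPM in established WT and 1.41 CPM in Fosl-2(Tg) mice. Its 548 reads are too few for more than a coarse comparison, with 12 libraries under 10 reads and 4 at 0, where a count of 0 allows up to 0.0634 to 0.312 CPM (3 reads, counting error only). The log2 fold change was −1.25 (SE 1.10, FDR = 0.481). Early values of these 3 genes overlapped between genotypes, with log2 fold changes of 0.25 (Notch3), 0.58 (Mcam) and 0.31 (Kcnj8).

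Markers of vessels and of skeletal muscle moved with these 4 genes. For each mouse, a cell type score was taken as the mean log2 CPM of a marker list, with 20 endothelial, 24 other mural, 14 fibroblast, 10 tenocyte and 14 skeletal muscle genes, none of which is among the 10 genes. The median endothelial score was 1.59 (range 0.09 to 2.85) in established WT and 0.73 (0.09 to 2.42) in established Fosl-2(Tg) mice, and the median skeletal muscle score was 6.25 (2.01 to 10.15) and 4.38 (1.65 to 8.55). Of the 19 endothelial and the 14 skeletal muscle genes tested, 0 were called by edgeR at the established stage, where 6.51% of all genes were called. An unadjusted p under 0.05 was found for 0 and 2 of them, beside 26.6% of all genes, and their median log2 fold changes were −0.35 and −1.86. With the skeletal muscle score as a covariate, the established log2 fold change of Rgs5 was 0.06, that of Kcnj8 −0.01, that of Mcam 0.20 and that of Notch3 −0.36, whereas Acta2 kept −0.69 (FDR = 0.0447). The endothelial score as a covariate gave −0.02 for Rgs5, −0.33 for Kcnj8, 0.20 for Mcam and −0.47 for Notch3, beside −0.69 for Acta2 (FDR = 0.0592).

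Pdgfrb, on chromosome 18, and Cspg4 (chr9:56772317-56807187, plus strand) behaved unlike the other pericyte genes. Pdgfrb, the receptor through which PDGF-B recruits pericytes and which fibroblasts also carry, measured 212, 332 and 432 CPM in established WT and 269, 337 and 404 CPM in established Fosl-2(Tg) mice. These ranges lay on top of each other (log2 fold change −0.01, SE 0.16, FDR = 0.986), as did the early ones of 141 to 300.4 CPM in WT and 147 to 287 CPM in Fosl-2(Tg) mice. Cspg4, the proteoglycan NG2, measured 202, 258 and 332 CPM in established WT and 67.2, 226 and 300.1 CPM in established Fosl-2(Tg) mice, 3 of which lay below every WT mouse (log2 fold change −0.36, SE 0.27, FDR = 0.411). In early mice it measured 175 to 293 CPM in WT and 147 to 277 CPM in Fosl-2(Tg) mice, 7 of 8 Fosl-2(Tg) mice being below the WT mean (log2 fold change −0.30, SE 0.15, FDR = 0.834).

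Set per kilobase of exon, so that genes can be compared, the mean levels in established WT mice ran from Pdgfrb at 40.4 ± 10.6 CPM per kb (SD, n = 6) and Cspg4 at 21.8 ± 3.73 through Acta2 at 10.03 ± 2.19, Rgs5 at 8.07 ± 7.84 and Tagln at 4.53 ± 2.36 to Notch3 at 0.930 ± 0.728, Mcam at 0.809 ± 0.658, Myh11 at 0.415 ± 0.243, Kcnj8 at 0.310 ± 0.351 and Cnn1 at 0.269 ± 0.0717. Rgs5 ran from 0.0908 to 18.4 CPM per kb in these 6 mice, and its range overlapped those of Acta2, Tagln and the 5 lowest genes. The ranges of those 5 also overlapped among themselves. Within single mice some orders were steady: Notch3 lay above Mcam, Myh11 and Kcnj8 in each of the 6. Against Mcam it gave 0.242 and 0.193 CPM per kb in replicate 4, and 2.16 and 1.96 in replicate 5. Kcnj8 and Cnn1 changed places between mice. Differences within mice were not tested. The 2 genes with the highest levels are thus the 2 pericyte genes that varied least, and Myh11, the smooth muscle myosin, stood far below Acta2 on this scale of levels.

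**Figure D2:**
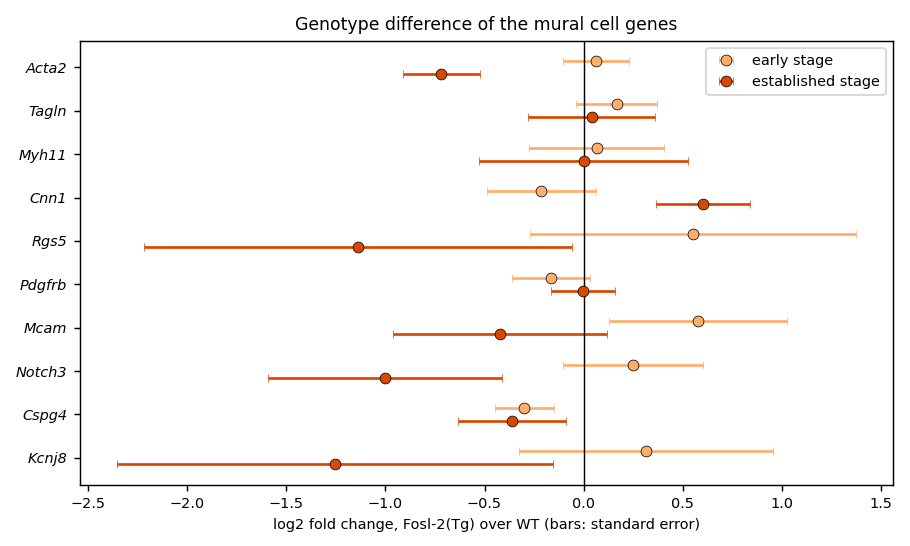
Genotype difference of the 10 genes as log2 fold change of Fosl-2(Tg) over WT (x axis), at the early stage (light points, 8 Fosl-2(Tg) against 7 WT libraries) and at the later, established stage (dark points, 7 against 6), with bars for the standard error. Acta2 at the established stage, at −0.72, is the 1 called difference, and Rgs5 and Kcnj8 have the widest bars.

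Other genes of mural cells were taken from fixed lists. Of 12 other smooth muscle contractile genes tested at the established stage, 3 were called lower, as were 3.37% of all genes, and 0 higher, with a median log2 fold change of −0.87. They were Kcnmb1, the beta subunit of the large-conductance potassium channel (log2 fold change −1.69, FDR = 0.0303), Smtn, the cytoskeletal protein smoothelin (−1.004, FDR = 0.0303), and Ppp1r14a, an inhibitor of myosin phosphatase (−0.73, FDR = 0.0462). The list of 12 also holds Des, which the other mural score left out as a skeletal muscle gene. That score correlated with the skeletal muscle score at r = 0.91 and with the endothelial score at r = 0.96 (28 mice, group means removed). The median of the 14 skeletal muscle genes was −1.86, and the part of muscle RNA in the median of −0.87 was not tested. Smtn separated the genotypes, at 55.7 to 79.1 CPM in WT and 14.3 to 54.9 CPM in Fosl-2(Tg) mice, which 3.77% of 16082 genes did. Kcnmb1 was near the limit of counting, at a mean of 0.976 CPM in WT and 0.292 CPM in Fosl-2(Tg) mice. With 1 library left out, Smtn kept its call in 6 of 13 fits (highest FDR 0.0650) and Ppp1r14a in 3 of 13. All 3 calls were lost without Fosl-2(Tg) replicate 1, 2 or 3 and without WT replicate 1, 2, 4 or 5, and that of Ppp1r14a also without Fosl-2(Tg) replicate 5 or 6 and without WT replicate 6. Ppp1r14a was also not called without the 2 established males (FDR = 0.106) or with no low-count filter (FDR = 0.0581).

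Of 13 other pericyte genes tested, 0 were called at the established stage and 13 had a negative log2 fold change (median −0.50), where 49.3% of all genes did. The 2 most abundant were Ndufa4l2, a mitochondrial protein of hypoxic cells, with a log2 fold change of −0.49 (SE 0.30, FDR = 0.308), and Steap4, a metalloreductase, with −0.25 (SE 0.25, FDR = 0.543). Their unadjusted p was under 0.05 for 4 of the 13, beside 26.6% of all genes. In edgeR the early stage gave 0 calls and 0 unadjusted p under 0.05 in either list, with medians of 0.18 and 0.24 beside −0.01 over all genes.

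Among 12 ligands and partners that recruit mural cells, 1 was called higher and 2 lower at the established stage, beside 3.14% and 3.37% of all genes. Edn1, the vasoconstrictor endothelin 1, measured 1.08 to 2.10 CPM in established WT and 1.94 to 19.0 CPM in established Fosl-2(Tg) mice (log2 fold change 1.88, SE 0.52, FDR = 0.0471). Pdgfa, a ligand of PDGFRA, measured 41.2 to 51.9 CPM in WT and 13.4 to 35.4 CPM in Fosl-2(Tg) mice, without overlap (log2 fold change −0.73, SE 0.16, FDR = 0.0242). Pdgfd, a ligand of PDGFRB, had a log2 fold change of −0.49 (SE 0.13, FDR = 0.0373). With 1 library left out, Pdgfa lost its call without Fosl-2(Tg) replicate 1 and without WT replicate 1 or 5, while Edn1 kept its call in 3 of 13 fits (without Fosl-2(Tg) replicate 2, 4 or 5) and Pdgfd in 5 of 13 (without Fosl-2(Tg) replicate 4, 5, 6 or 7 or WT replicate 3). Neither Edn1 nor Pdgfd was called without the 2 males, and Edn1 was also not called with no low-count filter (FDR = 0.0561). Pdgfb, the endothelial recruiter of pericytes, was not called (−0.35, SE 0.38, FDR = 0.584), nor was the Notch ligand Jag1 (−0.00, SE 0.15, FDR = 0.998).

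Other actins were set beside Acta2 because their sequences are nearly the same and reads could be shared between them. The cytoplasmic actins Actb and Actg1 had negative log2 fold changes at the established stage that were not called (−0.47, FDR = 0.217, and −0.42, FDR = 0.359), as had Acta1 of skeletal muscle (−2.35, SE 1.23, FDR = 0.238). Acta1 ranged from 10.4 to 3199 CPM in established WT mice and Acta2 from 22.2 to 43.8 CPM. In these mice Acta2 had r = 0.58 with the skeletal muscle score, and sharing of reads between the actins was not tested. Heart actin Actc1 and enteric smooth muscle actin Actg2 were near 0, with means of at most 0.621 and 0.201 CPM in any group. Of 13 cytoskeletal targets of serum response factor and its cofactors, 0 were called at the established stage (median −0.26, 11 negative beside 49.3% of all genes), and 4 had an unadjusted p under 0.05, near the 26.6% of all genes.

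The variation between mice was then compared after subtracting each group's mean, which removes mean differences between genotypes and stages. Unequal spread within the groups still enters. The fibroblast score, for one, ran from 6.61 to 8.33 in established Fosl-2(Tg) and from 7.89 to 8.51 in established WT mice. Over 28 mice, Rgs5, Mcam, Notch3 and Kcnj8 correlated with each other at Pearson's r of 0.90 to 0.93 (6 pairs). They followed the endothelial score at r of 0.95 for Rgs5, 0.96 for Mcam, 0.95 for Notch3 and 0.93 for Kcnj8 (Spearman's rho 0.91 to 0.96, permutation p = 1e-05 for each by either measure, the smallest that 100000 permutations can give, adjusted p = 3e-05 over 45 relations). Leaving out the 2 mice farthest from the median score gave r of 0.94 to 0.96. The relation held within both stages, with r of 0.90 to 0.97.

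The same 4 genes followed the skeletal muscle score at r of 0.85 to 0.93 (rho 0.85 to 0.93, permutation p = 1e-05 for each), and that score correlated with the endothelial score at r = 0.90. After removal of the skeletal muscle score, the relation to the endothelial score was r = 0.71 (Rgs5), 0.84 (Mcam), 0.79 (Notch3) and 0.67 (Kcnj8), with permutation p of at most 0.00252 (adjusted p at most 0.0126 over 20 relations), and Spearman's rho was 0.58 to 0.89 (permutation p at most 0.00679, adjusted p at most 0.034). The reverse relation, to skeletal muscle after the endothelial score, was r = 0.58 for Rgs5 (rho 0.51, permutation p = 0.00527 and 0.0115, adjusted p = 0.0211 and 0.046) and between −0.00 and 0.31 for the other 3. The established mice with the least and the most Rgs5 can be read singly within each genotype. In WT, replicate 4 gave 0.558 CPM of Rgs5, 1.41 CPM of the endothelial gene Pecam1 and 22.2 CPM of Acta2, while replicate 5 gave 113 CPM of Rgs5, 15.5 CPM of Pecam1 and 31.3 CPM of Acta2. In Fosl-2(Tg), replicate 4 gave 0.453 CPM of Rgs5, 1.16 CPM of Pecam1 and 24.4 CPM of Acta2, while replicate 7 gave 58.4 CPM of Rgs5, 11.3 CPM of Pecam1 and 21.8 CPM of Acta2. Acta2 was thus higher in the mouse with more Rgs5 and Pecam1 RNA in the WT pair and lower in the Fosl-2(Tg) pair. The mice with more of both also had more Acta1, at 3199 against 10.4 CPM in WT and 420 against 8.11 CPM in Fosl-2(Tg). WT replicate 5 was male and the others female, so vessel RNA was not the only difference within the pairs.

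For Acta2 the values were nearer to 0. Its r with the endothelial score was 0.24 (rho 0.25, permutation p = 0.232 and 0.212, adjusted p = 0.291 and 0.265 over the 5 scores), and 0.12 without the 2 farthest mice. With the other mural score it was 0.33 (rho 0.38, permutation p = 0.0862 and 0.0494, adjusted p = 0.215 and 0.123). The fibroblast score gave the highest r of the 5, at 0.45 (rho 0.54, permutation p = 0.0375 and 0.00687, adjusted p = 0.188 and 0.0343), and 0.57 without the 2 farthest mice. The adjusted p passed 0.05 by Spearman's but not by Pearson's measure. Within stages, the fibroblast relation was r = 0.51 in early and 0.44 in established mice, neither past the threshold by itself (permutation p = 0.0649 and 0.184). With 1 mouse left out, its permutation p was under 0.05 in 18 of 28 runs (r 0.38 to 0.61). It was over 0.05 without early WT replicate 3 or 7, early Fosl-2(Tg) replicate 3 or 4, established WT replicate 4, or established Fosl-2(Tg) replicate 1, 3, 4, 6 or 7. It was 0.51 after removal of the endothelial score and 0.55 after removal of the skeletal muscle score. The endothelial relation was r = 0.39 in early and 0.11 in established mice. Within single groups, given as descriptions with no test, the order of the 2 scores turned: r with the endothelial score was 0.32 in early WT, 0.49 in early Fosl-2(Tg), 0.59 in established WT and −0.24 in established Fosl-2(Tg) mice, and r with the fibroblast score was 0.31, 0.67, 0.03 and 0.56. Of these 2 scores, r was thus higher with the vessels in established WT mice (n = 6) and with the fibroblasts in established Fosl-2(Tg) mice (n = 7). The skeletal muscle score gave r of 0.18, 0.66, 0.58 and −0.18 in the same groups and order, so vessel and muscle RNA were not separated there. The tenocyte score gave r = 0.28 (rho 0.22, permutation p = 0.291 and 0.284) and the skeletal muscle score r = 0.23 (rho 0.28, permutation p = 0.250 and 0.148). Whether the r with fibroblasts differs from the r with vessels was not tested.

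**Figure D3:**
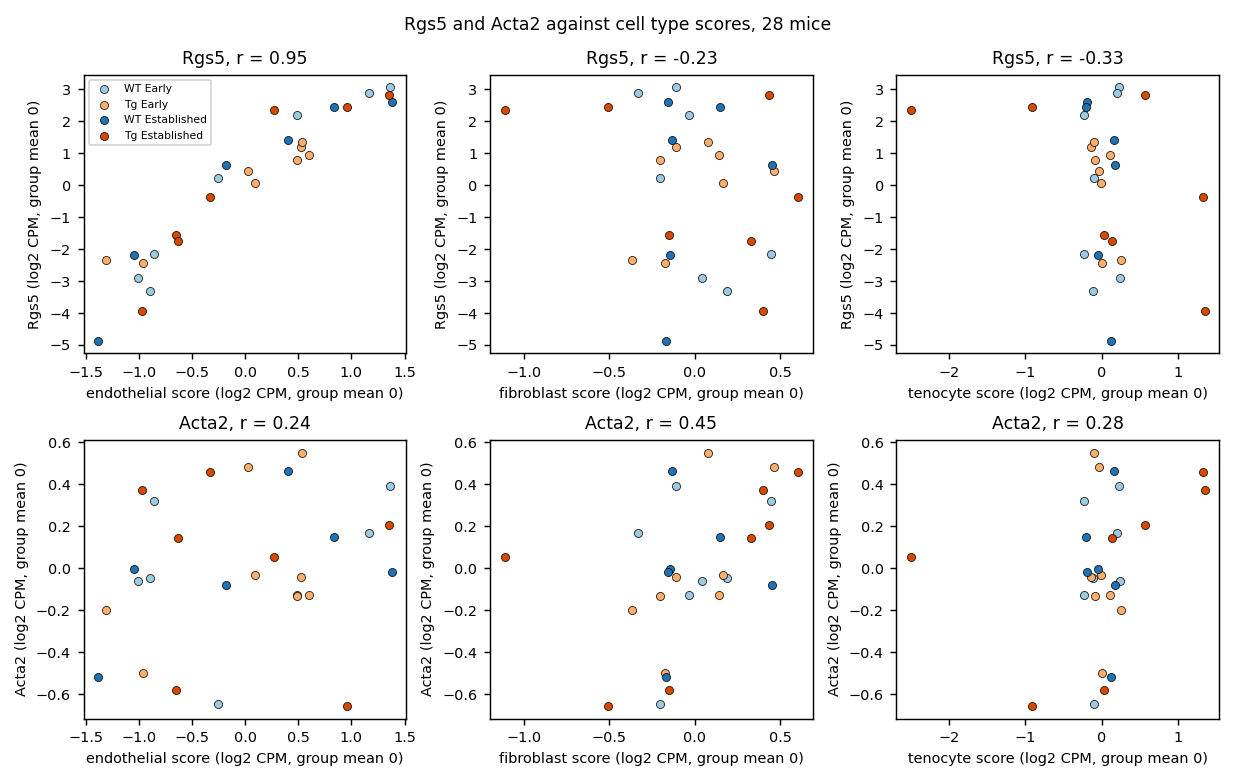
Rgs5 (top) and Acta2 (bottom), in log2 CPM with each group's mean set to 0, against the endothelial, fibroblast and tenocyte scores on the same scale, with 1 point per mouse (28 mice, coloured by group). Rgs5 rises along the endothelial score (r = 0.95), while Acta2 scatters over it (r = 0.24) and has r = 0.45 with the fibroblast score.

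Among single genes of the lists, Acta2 had its highest correlations with the fibroblast genes Pdpn, which encodes podoplanin (r = 0.61), and Dpt, which encodes dermatopontin (r = 0.55). Over the 14 fibroblast genes the median r was 0.33, and over the 9 genes of fibroblast activation 0.35 with all 9 positive. It was 0.16 over the 16 endothelial genes at a mean of at least 1 CPM, 0.27 over 11 other pericyte genes, 0.22 over 11 other contractile genes and 0.01 over all 14571 genes ranked. Acta2 correlated with its fellow contractile genes at r between −0.44 (Cnn1) and 0.19 (Myh11), and at 0.19 to 0.30 with the 4 vessel-linked pericyte genes.

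Among the genes whose pattern over the 28 mice was most like Acta2 were Ip6k3, an inositol hexakisphosphate kinase (r = 0.74), S100a11, a calcium-binding protein (0.73), Gm49325 (0.73), Rab7, a GTPase of late endosomes (0.71), Cat, which encodes catalase (0.71), Atf6, a sensor of unfolded proteins (0.70), Ccser2 (0.69), Gm49369 (0.68) and Ide, the insulin-degrading enzyme (0.68). None of these 9 is in a mural, endothelial or fibroblast list. For Rgs5 they were Adgrf5 (r = 0.98) and Adgrl4 (0.98), adhesion receptors of endothelium, Abcc9 (0.97), which pairs with Kcnj8 in the pericyte channel, Robo4 (0.96) and Fabp4 (0.96). Mcam came nearest to Ptprb (0.94), Vtn, Tie1, Robo4 and Cdh5, and Notch3 to the endothelial cadherin Cdh5 (0.95), Tie1, Mcam, Nos3 and Sorbs2. Kcnj8 came nearest to Cdh5 (0.94), Pecam1, Mcam, Rgs5 and Scn4b. These lists are descriptions, and the genes share libraries and depth.

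Tagln and Myh11 stood between. Tagln had r = 0.62 with the endothelial score (rho 0.74, permutation p = 0.00108 and 8e-05, adjusted p = 0.00304 and 0.000225, 0.58 without the 2 farthest mice), and its nearest genes were Myl9 (r = 0.80), the regulatory light chain of smooth muscle myosin, Dgkh, Mstn, Mrpl3 and Prmt3. With the skeletal muscle score Tagln had r = 0.58 (rho 0.69, permutation p = 0.00241 and 0.0002). After removal of that score, its r with endothelium was 0.27 (rho 0.33, permutation p = 0.144 and 0.107, adjusted p = 0.32 and 0.306). After removal of the endothelial score, its r with skeletal muscle was 0.08 (rho −0.05, permutation p = 0.722 and 0.802). Myh11 had r = 0.80 with the endothelial score (rho 0.85) and 0.88 with the skeletal muscle score (rho 0.91), with permutation p = 1e-05 for each and r of 0.77 and 0.87 without the 2 farthest mice. Its nearest genes were Ucp3 (r = 0.94), Trim63 (0.93), Pdk4 (0.92), Plin4 (0.92) and Alpk2 (0.92), of which Ucp3 and Trim63 are best known from skeletal muscle. After removal of the endothelial score, Myh11 had r = 0.61 with skeletal muscle (rho 0.28, permutation p = 0.0177 and 0.198, adjusted p = 0.0506 and 0.396), and after removal of the muscle score it had r = 0.06 with endothelium (rho 0.27, permutation p = 0.822 and 0.221). The Myh11 counts thus moved with muscle RNA as well as with vessel RNA, and the part of each in them was not tested. Cnn1 had r = −0.23 with the endothelial score and −0.52 with the fibroblast score (rho −0.59, permutation p = 0.00266 and 0.00268, adjusted p = 0.00665 and 0.00635, −0.43 without the 2 farthest mice), on the few reads given above. Its nearest genes were Cryba1 (r = 0.79), Pfkfb2, Gm42441, Gm47694 and Vinac1.

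Pdgfrb and Cspg4 went the other way from the 4 vessel-linked genes, with r between −0.54 and −0.31 over the 8 pairs, and were positively correlated with each other (r = 0.45). Pdgfrb had r = −0.39 with the endothelial score (rho −0.41, permutation p = 0.0680 and 0.0563, adjusted p = 0.109 and 0.101) and −0.53 with the skeletal muscle score (rho −0.51, permutation p = 0.0126 and 0.0172, adjusted p = 0.0258 and 0.0352, −0.54 without the 2 farthest mice). Its nearest genes were Notch2 (r = 0.94), Ntn1 (0.91), Gm42820 (0.91), Cilp (0.90), a matrix protein of cartilage and tendon, and Tom1l2 (0.90). Cspg4 had r = 0.71 with the tenocyte score (rho 0.50, permutation p = 0.0188 and 0.0213, adjusted p = 0.0368 and 0.0417), but that r was 0.27 without the 2 farthest mice, so the linear relation rests on them. With the skeletal muscle score Cspg4 had r = −0.52 (rho −0.53, permutation p = 0.00323 and 0.00495, adjusted p = 0.00765 and 0.0111, −0.57 without the 2 farthest mice). With the endothelial score it had r = −0.42 (rho −0.52, permutation p = 0.0281 and 0.00651, adjusted p = 0.0527 and 0.0139, −0.42 without the 2 farthest mice). Those nearest to Cspg4 were Fignl2 (r = 0.94), Tnks1bp1 (0.94), Csk (0.93), Glis2 (0.93) and Maz (0.92). After removal of the skeletal muscle score, r with the endothelial score was 0.23 for Pdgfrb and 0.13 for Cspg4. Neither passed (permutation p = 0.194 and 0.664). With skeletal muscle after the endothelial score, r was −0.45 (permutation p = 0.0122, adjusted p = 0.0407) and −0.36 (permutation p = 0.207). The pattern of these 2 genes thus differed from that of the 4 vessel-linked genes. Neither had a positive relation to the endothelial score that passed the threshold. Both stood at 67.2 CPM or more in every library, including the 2 with Rgs5 under 1 CPM.

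**Figure D4:**
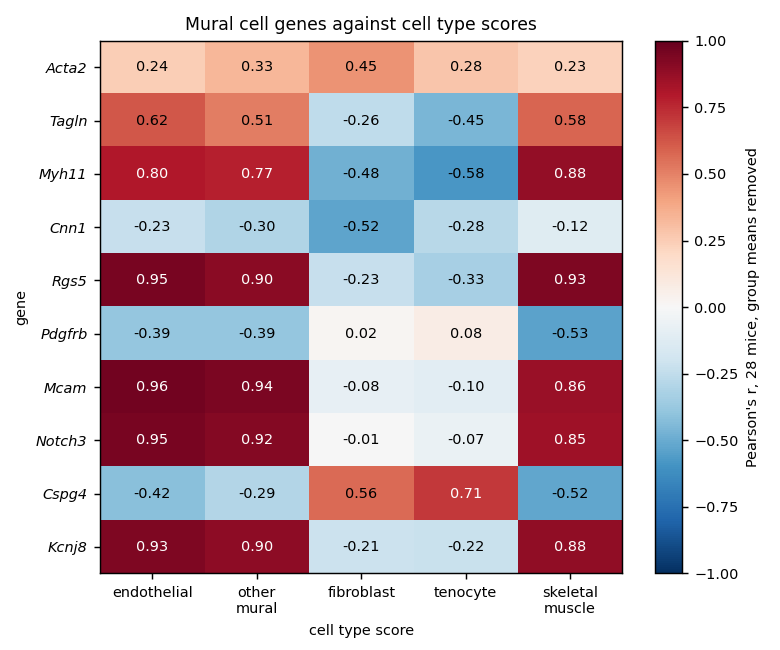
Pearson's r of each of the 10 genes (rows) with the 5 cell type scores (columns) over 28 mice, group means removed, on a colour scale from −1 (blue) to 1 (red) with each r printed. Rgs5, Mcam, Notch3 and Kcnj8 have r of 0.85 or more with the endothelial, other mural and skeletal muscle scores, Pdgfrb and Cspg4 have negative r with all 3, and Acta2 has its highest r, 0.45, with the fibroblast score.

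Fibroblast and tendon genes gave the setting of the Acta2 difference. At the established stage 3.37% of all genes were called lower, 3.14% higher, and 26.6% had an unadjusted p under 0.05. Of 14 fibroblast genes 0 were called by edgeR (median log2 fold change −0.15), and 4 had an unadjusted p under 0.05. Of 10 tenocyte genes 5 were called lower, with a median of −1.59, among them Col1a1 (−2.50, SE 0.63), Tnmd (−2.03, SE 0.53) and Col1a2. With 1 library left out, Col1a1 kept its call in 5 of 13 fits and Tnmd in 4 of 13, their log2 fold changes staying at −1.81 or lower in every setting tried. Of 9 genes of fibroblast activation 1 was called, Col8a1, which was lower. Acta2 and these tendon genes were thus lower in the same comparison, and whether the one depends on the other was not tested. Markers of further cell types in the established mice gave 1 of 6 Schwann cell genes lower, 1 of 8 macrophage genes higher, and 0 of 4 erythroid and 0 of 3 keratinocyte genes called by edgeR, with 3 and 0 of the last 2 lists at an unadjusted p under 0.05.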

How the data were processed

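Total RNA of tail tendon fascicles was depleted of rRNA during library preparation by a sequencing company, and reads were aligned to GRCm39 (GENCODE M26) with STAR and counted per gene with featureCounts. The deposited values are raw read counts per gene, 1 table per mouse, and were used as deposited. Tool versions, strand setting and treatment of reads with several matches are not given in the sources used here. Identifiers were named with GENCODE M39 (25505 of 25719), and columns other than the counts were not used.

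Genes with few reads were removed (filterByExpr, minimum count 10 and minimum total 15). Counts were TMM scaled and tested with edgeR 4.0.16 in R 4.3.3 (glmQLFit, glmQLFTest) without covariates, within each stage, and for the interaction in 1 fit of the 28 libraries. DESeq2 1.42.0 and limma 3.58.1 voom served as alternatives, beside RLE scaling, other filters, the replicate number as a block, covariates for sex and for the skeletal muscle score, all libraries in 1 fit and each library left out in turn. The main edgeR fit of each comparison was first tested on simulated data, the alternatives were not. The endothelial score as a covariate was chosen later, after the data were seen. Correlations used log2 CPM (prior count 2) with group means removed, and two-sided permutation within groups (SciPy 1.17.1). The smallest difference between libraries of 1 group was far over sampling noise (chi-square 7.02 per degree of freedom), so none was counted as a repeat.

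The 10 genes and all lists were chosen with earlier results of these data known. Named were these 10 genes, the actins, Fosl2, up to 3 called genes with the largest change per list and direction, else the 2 most abundant, and the 10 genes nearest to Acta2 and 5 nearest to each other member, of which 1 is not reported here. Beyond that rule, Pdgfb, Jag1, the overlapping genes Stambpl1, Elof1 and Pcsk7, Pecam1, Pdpn, Dpt, Scx and Hba-a1 were named after their values were seen. WT and Fosl-2(Tg) mice share replicate numbers. Same-numbered early mice correlated in their deviations at 0.129 to 0.363 in all 7 pairs, so by the rule used (every pair over 0.1) the numbers may pair early mice, although 1 of 14 mice correlated best with its own number. In established mice 4 of 6 pairs were over 0.1 (−0.223 to 0.688), so by the same rule these were not taken as pairs, although 5 of 12 mice correlated best with their own number. Promoter windows came from RefSeq on GRCm38.p6.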

Additional observations from a re-analysis of the deposited data

Results flagged for a closer look

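In 40 groups of 1 gene and 1 group of mice, a gap test for single extreme mice marked 3, and chance marks about 1 in 20. Tagln was 18.6 CPM in WT established replicate 2, against 5.59 to 9.82 CPM in the other 5 mice. Myh11 was 10.7 CPM in Fosl-2(Tg) established replicate 5, against 1.02 to 3.12 CPM in the rest of that group. Cspg4 was 277 CPM in Fosl-2(Tg) early replicate 1, against 147 to 202 CPM in the other early Fosl-2(Tg) mice.

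A genotype effect that differed between stages by the interaction test (edgeR, FDR at most 0.05) was found for 0 of the 10 mural genes, 2 of which had an unadjusted p under 0.05. It was found for 21 of 144 other genes, those of the other lists together with Stambpl1, Elof1 and Pcsk7, beside 7.43% of all 16082 genes. DESeq2 and voom each called 1 of the 10, Acta2. Around mural cells these were Smtn (−0.95 on the log2 scale, established minus early), Edn1 (2.22), Pdgfa (−0.87) and the Notch ligand Dll1 (−1.13). In fibroblast and tendon lists they were Serpinf1 (−1.56), Thy1 (−1.40), Col8a1 (−1.88), Tnc (−1.63), Col1a1 (−3.04), Col1a2 (−2.69), Tnmd (−1.94) and Scx (−1.41). In lists of other cell types they were Ncam1 (−1.27) and Mbp (1.27) of Schwann cells, the macrophage genes Cd163 (1.44), Mrc1 (0.998) and Adgre1 (0.97), and the globin genes Hbb-bt (5.52), Hbb-bs (5.33), Hba-a2 (4.95) and Hba-a1 (3.50). With 1 library left out, the call was kept in 9 of 28 fits for Tnc and for Mbp, 11 for Serpinf1 and for Thy1, 12 for Edn1, 20 for Tnmd, 21 for Dll1 and 26 for Smtn. Among 9 other settings it was kept in 5 for Tnc and Edn1 (FDR up to 0.232), 3 for Mbp, 7 for Dll1 and 8 for Serpinf1, Thy1 and Hbb-bs. These alternatives were not run for Scx and Hba-a1. Stage and sex cannot be told apart in these values.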

How the results depend on the processing

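The early count of called mural genes was 0 under every alternative tried. The established count of 1 (Acta2) became 0 with no low-count filter, with the replicate block, without the 2 established males and with the endothelial score as a covariate, and was 0 to 1 with single libraries left out. The interaction count of 0 became 1 (Acta2) with DESeq2 and with voom, and was 0 to 1 with single libraries left out (1 without Fosl-2(Tg) early replicate 3, WT early replicate 4, WT established replicate 4 or Fosl-2(Tg) established replicate 6). The negative log2 fold change of Acta2 at the established stage and in the interaction kept its sign under every alternative tried.

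For the replicate block, established Acta2 was −0.77 (FDR = 0.0810), early Acta2 turned to −0.025 and established Pdgfrb to 0.066, and no other call among the 10 genes changed. Of the other named genes, Ppp1r14a, Edn1, Pdgfd and Col1a1 lost their established call with the block (FDR = 0.0579, 0.0665, 0.0701 and 0.0556) and Edn1 and Mbp their interaction call (FDR = 0.0855 and 0.0790). The established mice did not meet the pairing rule used, although 5 of 12 correlated best with their own number. Whether the replicate numbers pair them is thus not known.

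Signs turned only where the value was uncalled. With the skeletal muscle score as a covariate, early values became −0.036 (Acta2), −0.033 (Tagln), −0.30 (Myh11), 0.032 (Pdgfrb), −0.15 (Notch3) and −0.10 (Kcnj8), established ones 0.24 (Myh11), 0.061 (Rgs5) and 0.20 (Mcam), and interactions 0.10 (Tagln), 0.53 (Myh11), −0.080 (Pdgfrb) and 0.087 (Kcnj8). With the endothelial score, early values became −0.014 (Acta2), −0.018 (Tagln) and −0.23 (Myh11), established ones 0.40 (Myh11) and 0.20 (Mcam), and interactions 0.12 (Tagln) and 0.62 (Myh11). Established Myh11 was 0.0095 with DESeq2, 0.000601 with RLE scaling and 0.0039 with a filter at 1 CPM. With voom, established Mcam was 0.18 and the Cspg4 interaction 0.053. Without the 2 males, established Tagln was −0.20, Pdgfrb 0.013 and Mcam 0.061, and the Cspg4 interaction 0.077. With sex as a covariate, established Tagln was −0.0041. With single libraries left out, the ranges were −0.029 to 0.13 (Acta2, early), −0.051 to 0.37 (Myh11, early), −0.70 to 0.32 (Myh11, established), −0.77 to 0.25 (Myh11, interaction), −0.16 to 0.37 (Tagln, established), −0.34 to 0.20 (Tagln, interaction), −0.10 to 0.088 (Pdgfrb, established), −0.77 to 0.092 (Mcam, established) and −0.19 to 0.078 (Cspg4, interaction). The cause was not tested.

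For Acta2, r with the fibroblast score was 0.38 to 0.61 with single mice left out, under 0.05 in 18 of 28 runs, and did not pass within early (0.51) or established mice (0.44). Its r with the other mural score passed with z-scored genes (0.42) and without WT early replicate 7 (range 0.26 to 0.40), and with the tenocyte score without the 2 established males (0.49) and without Fosl-2(Tg) established replicate 5 (range 0.18 to 0.49). Over all genes, the early count of 6 calls was 25 with DESeq2, 10 with voom, 11 with the block and 4 to 12 with single libraries left out (12 with WT early replicate 4 dropped). The established count of 1032 was 2177 with DESeq2, 1984 with voom, 1701 with the muscle covariate, 1663 with all libraries in 1 fit, 560 without the 2 males and 361 to 1166 with single libraries left out, lowest when WT replicate 1 was dropped. The interaction count of 1195 was 1951 with voom, 2000 with the block, 725 without the males and 702 to 1876 with single libraries left out (WT early replicates 2 and 5 dropped). Depth limits Cnn1 and Kcnj8 most, with 513 and 548 reads in all.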
